A study of Mus musculus with 214 samples.

Results

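The livers described here came from Mgmt-/- mice collected 10 weeks after exposure to N-nitrosodimethylamine (NDMA) or saline, and they were chosen by genotype and collection time alone. They gave 16 libraries of the 213 with values in the series, 8 from NDMA-treated and 8 from saline-treated mice, each group with 4 males and 4 females. All mice were of a C57BL6 background and carried RaDR, a reporter in which recombination restores GFP, and the gpt delta transgene, in both groups (RaDR+/+;GPT+/+;Mgmt-/-). NDMA was injected intraperitoneally at 3.5 mg/kg on postnatal day 8 and at 7 mg/kg on day 15, and the control mice received saline on the same days. Treatment was assigned to whole litters, and the litter of each mouse is not given in the sources used here, so that litter and treatment cannot be told apart. Expression was measured by 3′ digital gene expression, which counts reads at the 3′ ends of transcripts, and each value below is a normalized read count (reads divided by the size factor of the library). Of 19540 genes in the table, 9681 reached a mean level of 5 over the 16 libraries and were tested.

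NDMA is turned into a DNA-methylating agent in hepatocytes by the cytochrome P450 CYP2E1. MGMT is the protein that removes the methyl group from O6-methylguanine, and in its absence the lesion mispairs during replication and is acted on by mismatch repair, which can leave strand gaps and breaks. Livers respond to such damage through p53, which drives the cell cycle inhibitor p21 among other targets, through division of surviving hepatocytes, and through interferons and chemokines that draw in immune cells. The zonation of the lobule, with xenobiotic metabolism around the central vein and urea synthesis near the portal vein, and the sex bias of many liver enzymes under growth hormone, are features of the mature organ.

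The libraries held from 727117 to 7740710 reads, with a median of about 2061520 in the NDMA group and about 1341900 in the saline group. Between 12117 and 16071 genes were detected in the NDMA libraries and between 11012 and 13242 in the saline libraries. All 16 were made in a single library batch. Xist and the Y-linked genes Ddx3y, Eif2s3y, Kdm5d and Uty matched the labelled sex in all 16. Mgmt itself lay between 0 and 3.41 in the NDMA livers and between 0 and 7.55 in the saline livers, below the mean needed for a test, and whether its 3′ end lies in the deleted part is not given in the sources used here. The 10 hepatocyte markers summed to between 137894 and 212841 in the NDMA livers and between 142481 and 273729 in the saline livers, while the 8 kidney markers summed to at most 10.6 in any library. The livers thus carried the transcripts of the labelled organ.

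Some saline libraries stood apart from the rest of their group. The one that changed the calls most was from the male D209001. Ribosomal protein transcripts took 0.866% of its reads, against 1.62 to 2.81% in the other saline libraries. Rps29, a protein of the small ribosomal subunit, was at 1.04 there and from 47.6 to 98.0 in the others, and Tob1, an inhibitor of proliferation, was at 786 there and from 42.4 to 86.8 in the others. Both were picked out after looking at their levels. This library was kept, and values without it are given beside those counts and calls that moved most. The saline male D209004 lay at the opposite end of the third principal component (-36.1, with D209001 at 31.5) and had a neutrophil marker sum of 560, against 33.4 to 159 in the other saline libraries. The saline male D209003 was high in Saa2, Spp1 and Tff3. Without D209003 there were 673 higher and 392 lower genes, and without D209004 there were 712 and 389.

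At 10 weeks, NDMA-treated Mgmt-/- livers differed from saline livers at 1080 genes, of which 704 were higher (7.27% of those tested) and 376 were lower (3.88%). A gene was called when its adjusted p-value from limma (Benjamini-Hochberg) was under 0.05 and its log2 fold change exceeded 0.58 in either direction. The higher genes moved further, with a median log2 fold change of 1.44 against -0.93 for the lower genes, and 168 rose by more than 2 on the log2 scale while 32 fell by as much. At 291 of the 9681 genes (3.01%) the 8 NDMA and 8 saline values did not overlap, and 285 of these were among the calls, 230 higher and 55 lower. The median log2 fold change of all genes tested was 0.04. Scaled to equal totals instead, that median was 0.24, and 1147 genes were higher and 177 lower, so that the share of higher calls went from 65.2% to 86.6%. The counts and medians of each list below stand beside these values over all genes, at the same scaling. Without D209001 there were 858 higher and 470 lower genes, which included 679 and 331 of those called with it. Along the first principal component of the 1000 most variable genes, with 37.1% of the variance, the NDMA and saline livers were separated, and the second, with 17.7%, separated males from females.

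The 12 leading higher genes were of mixed kinds. Ly6d (chr15:74762056-74763620, minus strand of GRCm38), a GPI-anchored surface protein of the Ly6 family, was at 1042 to 4587 with a median of 1317 in the NDMA livers and at 3.56 to 25.2 with a median of 14.8 in the saline livers. The groups were far apart, by a log2 fold change of 6.94 ± 0.31 (SE, adjusted p = 2.4e-13). Cib3, of the calcium- and integrin-binding family, ranged from 542 to 1047 (median 752) after NDMA and from 0.866 to 53.4 (median 13.3) after saline, with a log2 fold change of 6.04 ± 0.38. Tff3, a trefoil peptide secreted by mucosal epithelia, ranged from 103 to 1587 (median 327) against 0 to 46.8 (median 6.61), a log2 fold change of 5.50 ± 0.53. For all 3 genes the lowest NDMA liver was above the highest saline liver.

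Sprr1a, a small proline-rich protein of stressed epithelia, was found in every NDMA liver at 19.7 to 113 (median 42.1) and had no read in any saline liver. Against a floor of 3 reads over the saline group, its NDMA median was at least 75.1-fold higher. Gsta1 (chr9:78230656-78242684), an alpha-class glutathione S-transferase, lay between 161 and 479 (median 251) against 0 to 33.9 (median 7.40), a log2 fold change of 5.02 ± 0.53 (adjusted p = 4.7e-06). Its near-identical relatives can share its 3′ reads, so that the single member is uncertain. Cbr3, a carbonyl reductase, was at 57.2 to 294 (median 114) after NDMA and at 2.46 to 6.04 (median 5.27) after saline, 4.42 ± 0.28 higher on the log2 scale. Lcn2, which binds bacterial siderophores and is released by injured epithelia, was at 322 to 1034 (median 698) against 7.12 to 87.7 (median 19.3), and Wfdc15b and Gipc2 rose by 4.76 and 4.59 on the log2 scale from saline medians of 0 and 0.522.

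The 12 leading lower genes were likewise varied. Sult2a8 (chr7:14410686-14446769), a hepatic sulfotransferase of bile acids, was at 44.3 to 683 (median 386) in the NDMA livers and at 1078 to 2552 (median 1783) in the saline livers, a log2 fold change of -2.80 ± 0.32 (adjusted p = 1.8e-06). Cyp2c37, a pericentral P450, ranged from 55.5 to 270 (median 116) against 441 to 1679 (median 766), and its log2 fold change of -2.73 was the same in males and in females. Srebf1 (chr11:60199089-60222581), the transcription factor SREBP-1 that drives fatty acid synthesis, ranged from 14.7 to 78.4 (median 26.3) against 78.7 to 261 (median 110), a log2 fold change of -2.05 ± 0.28. The gap between the groups was narrow here, 78.4 against 78.7. Lifr, the receptor of leukaemia inhibitory factor, was at 54.9 to 145 (median 113) against 238 to 989 (median 305). Mir22hg, the host transcript of a microRNA, was at 10.2 to 63.0 (median 29.0) against 73.6 to 112 (median 88.7).

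Cyp2e1 (chr7:140763739-140774987), the enzyme that activates NDMA, lay between 797 and 2728 (median 1530) in the NDMA livers and between 3189 and 8089 (median 5285) in the saline livers. No NDMA liver reached the lowest saline liver, and the log2 fold change was -1.74 ± 0.24 (adjusted p = 1.8e-05). Cnmd, Arhgap26, Nxpe2, Rgs16, Sdr9c7 and Ntm completed the 12 leading lower genes, with log2 fold changes from -3.10 (Cnmd) to -1.93 (Ntm) and saline medians from 7.98 to 57.4. Rgs16, a regulator of G-protein signalling, was at 3.65 to 13.7 (median 8.49) against 16 to 116 (median 47.0).

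**Figure D1:**
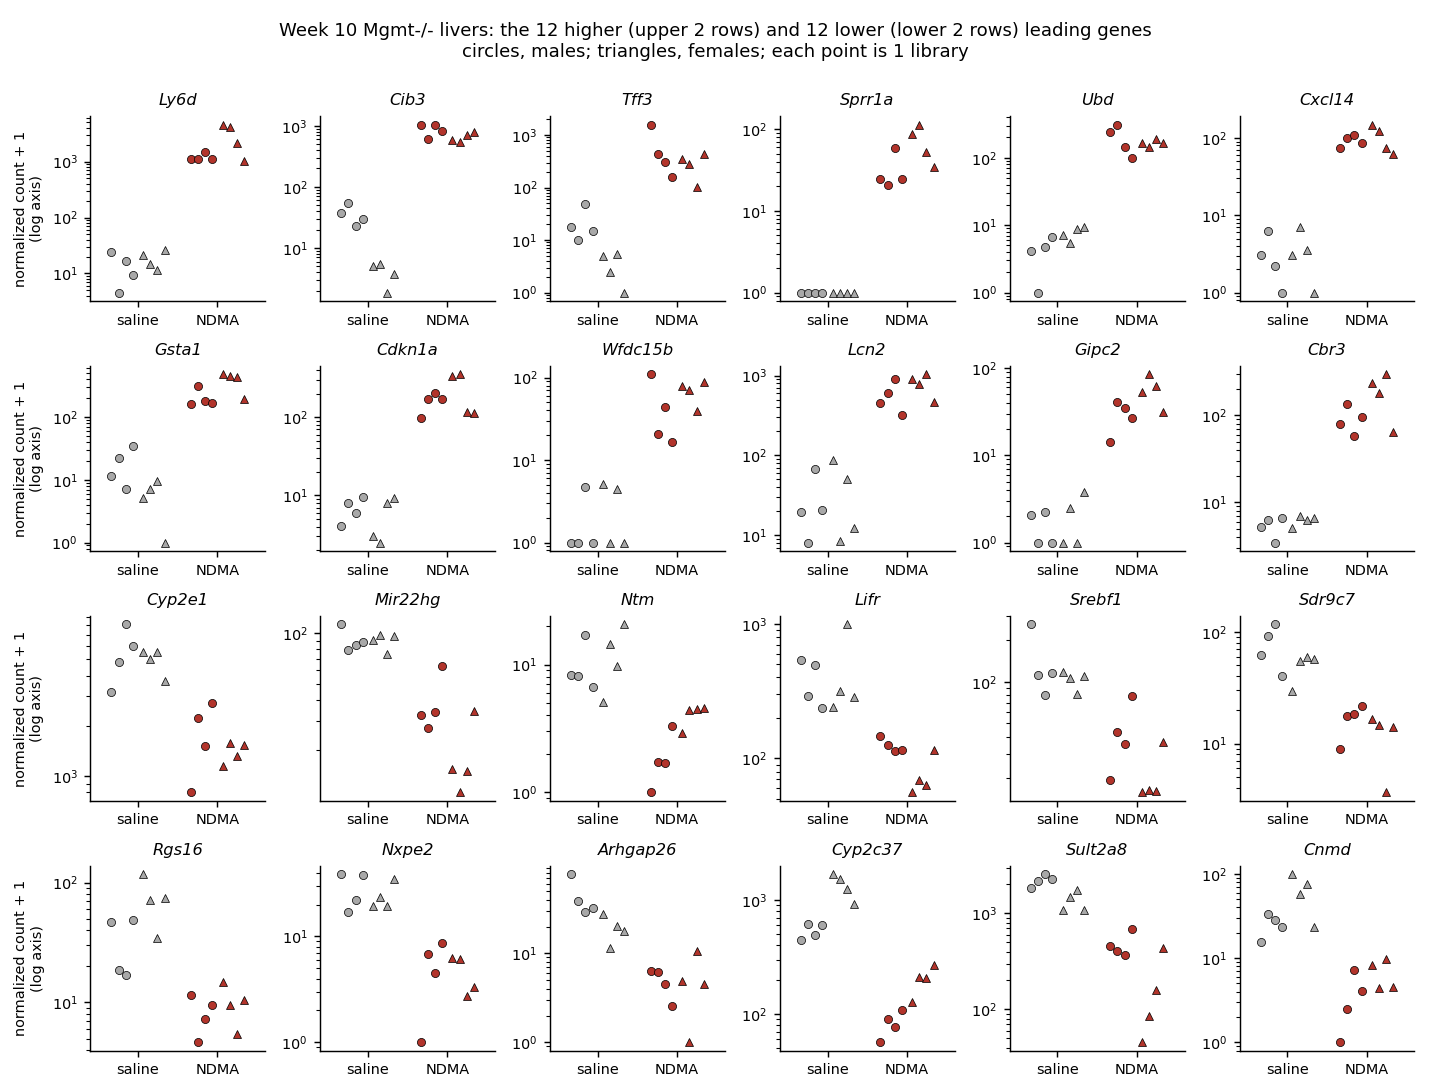
Normalized count plus 1 (log axis) of the 12 higher and 12 lower leading genes in each of the 16 Mgmt-/- livers of week 10, with saline in grey, NDMA in red, males as circles and females as triangles. In every panel the 8 NDMA points lie wholly above (upper 2 rows) or wholly below (lower 2 rows) the 8 saline points, and Sprr1a had no read in any saline liver.

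Targets of p53 and genes of cell division were higher in part. Of 28 p53 targets tested, 10 were higher, 1 was lower and 17 were not called, with a median log2 fold change of 0.82 beside 0.04 over all genes. Without the NDMA library D209029 or D209030 there were 6 higher. Cdkn1a (chr17:29090976-29100727), which encodes p21, was at 97.7 to 349 (median 170) in the NDMA livers and at 1.51 to 8.48 (median 5.92) in the saline livers, a log2 fold change of 4.95 ± 0.32 (adjusted p = 1.8e-10). Phlda3, an inhibitor of AKT signalling, was at 4.61 to 18.1 (median 10.8) against 0 to 2.09, with 2 reads in all saline libraries together, both in D209001. Its pooled ratio was 32.0, with an exact 95% interval, for counting error only, from 8.69 to 267. Ddit4l, an inhibitor of mTOR signalling, rose by 2.72 ± 0.45. The exception in the list was Slc19a2, a thiamine transporter, at 36.2 to 58.1 against 59.4 to 342.

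Of 25 genes of cell division and DNA replication tested, 13 were higher and none lower (1 lower without D209001), with a median log2 fold change of 1.16. Prc1, which bundles microtubules of the central spindle, was at 10.8 to 35.3 (median 18.8) against 0 to 7.79 (median 1.57), and the kinetochore proteins Cenpf and Cenpe were at medians of 14.8 and 14.3 against 0 and 0.522. These were low counts: with a mean of at least 20 required, which leaves fewer members tested, 3 were higher. In the short list of senescence and secreted factors, 4 of 10 were higher (Cdkn1a, Ccl2, Mmp12 and Vim), with a median of 0.84.

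The oncofetal and preneoplastic markers, a list chosen with earlier results of these data known, were higher at 23 of 30 members and lower at none. Their median log2 fold change was 2.31, and 7.27% of all genes tested were higher. The list holds genes of fetal liver and of altered foci, and some members, such as Gsta1 and Anxa2, are counted again in lists below. Besides Ly6d, Tff3 and Gsta1, the list held Spink1, a secreted trypsin inhibitor, at 90.7 to 281 (median 134) against 3.02 to 13.6 (median 5.86). Lpl, lipoprotein lipase, which the adult hepatocyte hardly makes, was at 109 to 295 (median 206) against 14.3 to 66.8 (median 24.1). Tspan8, an epithelial tetraspanin, was at a median of 29.1 against 1.65, and Scd2, the desaturase of fetal liver, at 36.3 against 2.53.

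Among 39 genes of glutathione metabolism and of the Nrf2 response to electrophiles, 15 were higher and 1 was lower (3 without D209001), with a median of 0.64. Gstm3, a mu-class glutathione S-transferase, was at 1030 to 6304 (median 3355) in the NDMA livers and at 53.2 to 388 (median 241) in the saline livers, a log2 fold change of 3.92 ± 0.37 (adjusted p = 1.4e-07). Gstm2 rose by 1.51. Nfe2l2, which encodes Nrf2 itself, was at 151 to 286 (median 258) against 82.0 to 174 (median 128), higher by 0.91 ± 0.17. Gsta3, the most abundant alpha-class member named, was the lower one, at a median of 3040 against 4755, and its call was lost with equal totals (adjusted p = 0.13). Gpx2, an epithelial glutathione peroxidase outside these lists, was at 11.5 to 98.8 (median 16) in the NDMA livers, with 1 read in all saline libraries together. Tubulins, annexins and S100 proteins were higher at 16 of 25 members and lower at none, with a median of 1.37. Anxa2 and S100a11, which bind membranes and calcium, rose by 3.03 ± 0.23 and 3.10 ± 0.28, and the groups did not overlap for either.

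**Figure D2:**
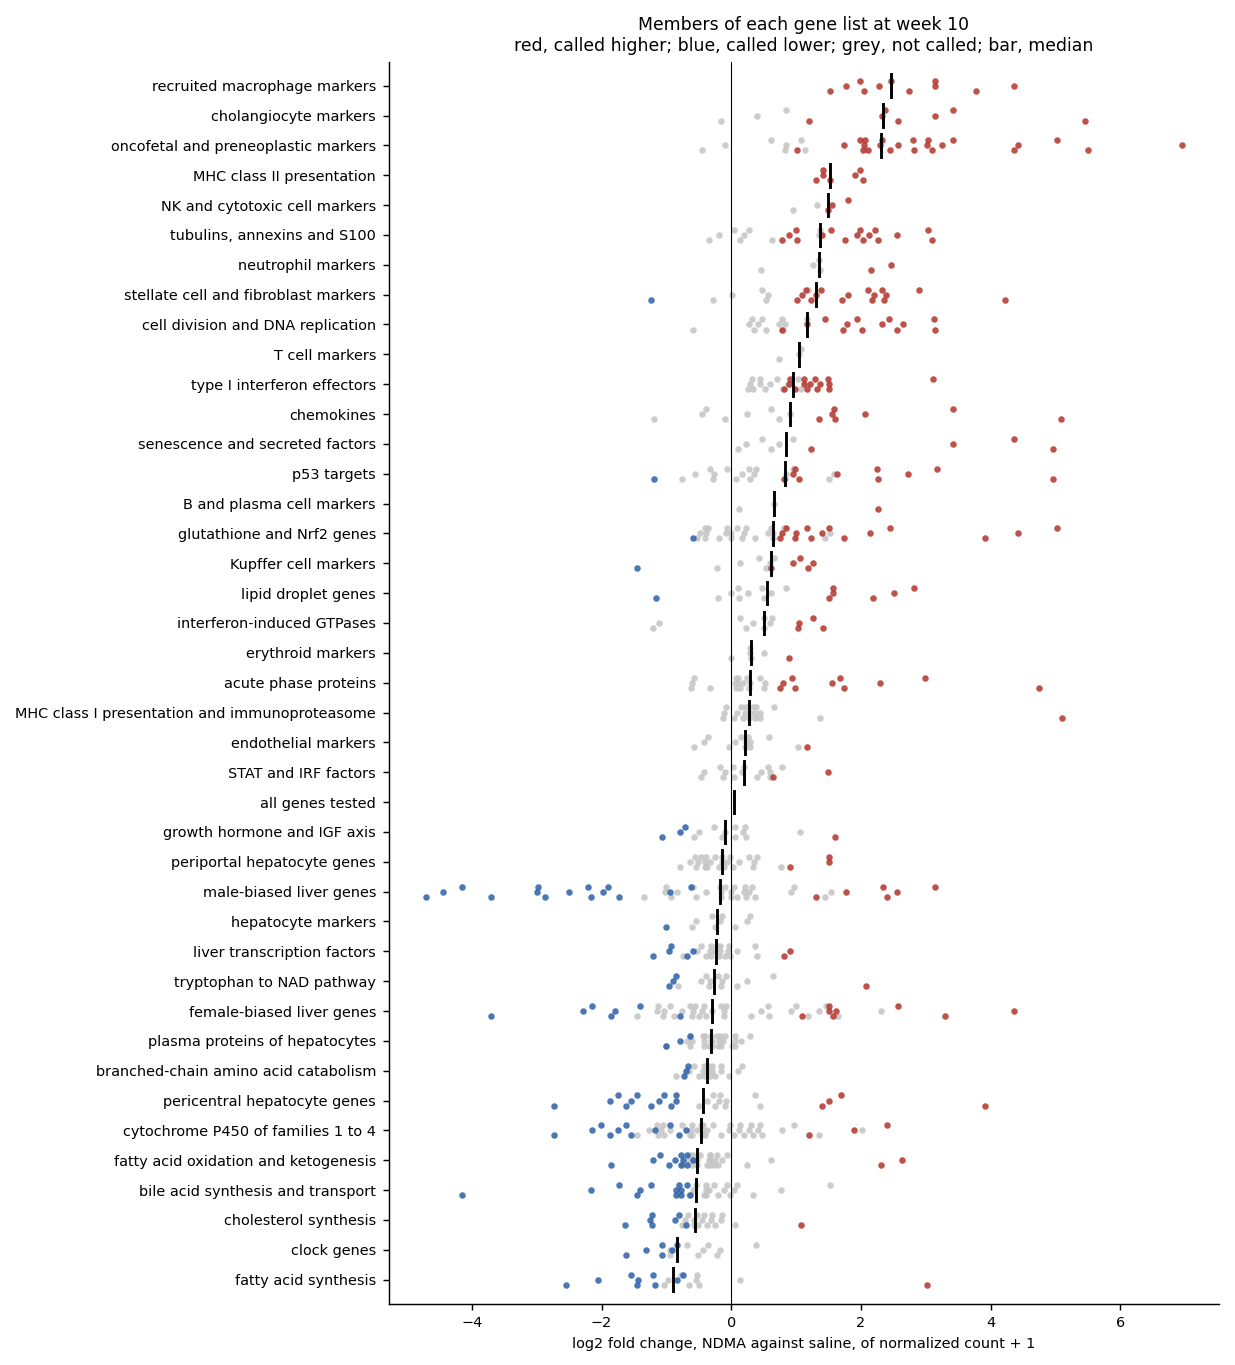
Log2 fold change (NDMA against saline, of normalized count plus 1) of each tested member of the gene and marker lists with at least 3 members tested, with genes called higher in red, called lower in blue and not called in grey, and a bar at the median of each list. Medians run from -0.90 for fatty acid synthesis to 2.47 for the recruited macrophage markers, beside 0.04 over all genes tested.

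Interferon genes were higher in part. Of 28 effectors of the type I response, 15 were higher, none was lower and the median log2 fold change was 0.95. Of 13 interferon-induced GTPases, 4 were higher (median 0.50), and 2 without the NDMA library D209006. With a mean of at least 20 required, which leaves fewer of these GTPases tested, 1 was higher. Their median was 1.00 in males and -0.14 in females, a difference that was not tested. Of 17 STAT and IRF factors and their receptors, 2 were higher (median 0.19, with 0.35 in males and 0.01 in females), and 5 without D209001. Across the settings tried this count ran from 0 to 5, and 7.27% of all genes tested were higher. Ifi27l2b, a small mitochondrial protein of the ISG12 family, led with 156 to 382 (median 238) against 16 to 58.8 (median 25.9), a log2 fold change of 3.12 ± 0.22 (adjusted p = 6.0e-10). Zbp1, a sensor of Z-form nucleic acid, was at 86.8 to 193 against 10.4 to 86.8, and Samd9l, an inhibitor of translation, at 62.8 to 90.4 against 9.84 to 36.8. Gbp2, a guanylate-binding GTPase, was at 10.6 to 46.0 (median 20.0) against 5.22 to 14.0 (median 8.78), with overlap and a log2 fold change of 1.05 ± 0.28 (adjusted p = 0.015). Irf8, the factor of the monocyte and dendritic lineages, was at 9.16 to 25.6 (median 15.4) against 0 to 10.6 (median 7.28). Ifngr1, the ligand-binding chain of the interferon gamma receptor, was near the threshold (adjusted p = 0.048), and edgeR gave 0.051.

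The promoters of Gbp2 and Irf8 are shown because these genes led their interferon lists among members with an entry in the set of RefSeq promoters used. No entry in that set was matched to Gbp9, Gbp8 or Ifi27l2b. Each line gives the 250 bases before the gene start, on the plus strand of GRCm38.p6, at chr3:142620413-142620662 for Gbp2 and chr8:120736108-120736357 for Irf8, with matches in capitals. In Gbp2 the capitals mark the core of the interferon-stimulated response element, GAAANNGAA, read on the opposite strand, and in Irf8 they mark 2 copies of the core of the gamma-activated sequence, TTCNNNGAA, which is its own reverse complement.
Gbp2: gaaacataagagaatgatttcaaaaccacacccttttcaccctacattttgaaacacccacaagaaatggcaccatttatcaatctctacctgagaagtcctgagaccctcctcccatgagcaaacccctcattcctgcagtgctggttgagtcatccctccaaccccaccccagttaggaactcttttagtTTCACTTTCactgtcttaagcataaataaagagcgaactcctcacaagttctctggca
Irf8: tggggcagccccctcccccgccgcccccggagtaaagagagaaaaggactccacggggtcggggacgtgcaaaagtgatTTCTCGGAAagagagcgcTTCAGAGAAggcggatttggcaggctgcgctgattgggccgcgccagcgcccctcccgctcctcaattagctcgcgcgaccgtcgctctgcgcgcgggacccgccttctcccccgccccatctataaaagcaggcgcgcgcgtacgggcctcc
The match in Gbp2 starts 58 bases before the gene start, and those in Irf8 start 171 and 153 bases before it. Over 32851 windows of the same length, 7.13% held the first core and 7.02% the second, on either strand. Such a match is a description of the letters and not a binding site. Among the 704 higher genes 75.4% had an entry, under the 80% required, so that no share of motifs over them is given.

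Genes of antigen presentation were higher mainly in class II. All 7 members tested of MHC class II presentation were higher, with a median log2 fold change of 1.52. Of 20 members of class I presentation and the immunoproteasome 1 was higher, with a median of 0.28, beside 7.27% of all genes tested. With equal totals 4 class I members were higher (median 0.49, beside 0.24 over all genes), and 2 without D209001. H2-Aa, the alpha chain of the class II molecule I-A, was at 521 to 1251 (median 556) in the NDMA livers and at 45.9 to 387 (median 166) in the saline livers, a log2 fold change of 2.04 ± 0.29, and H2-Ab1 and H2-Eb1 rose by 1.91 and 1.99 with no overlap. The class I member was Ubd (chr17:37193892-37196095), a ubiquitin-like modifier induced by interferon gamma and TNF, at 97.6 to 310 (median 166) against 0 to 8.4 (median 5.09), higher by 5.10 ± 0.34 (adjusted p = 1.9e-10). The difference between the classes was not tested.

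Of 15 chemokines tested, 7 were higher and none lower (1 lower without D209001), with a median of 0.90, which was 1.43 in males and 0.42 in females. Cxcl14, made by epithelia and fibroblasts, was at 61.5 to 148 (median 92.2) against 0 to 6.04 (median 2.06), higher by 5.09 ± 0.37. Ccl2, which attracts monocytes, was at 33.8 to 93.5 (median 60.8) against 2.04 to 19.6 (median 4.40). Cxcl10 and Ccl5, ligands that attract T and NK cells, rose by 2.06 and 1.55, each with some overlap of the groups.

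Markers of some other cell types were higher as well, while few or none of those of others were called. In bulk liver, more cells of a type and more RNA per cell cannot be told apart. All 11 recruited macrophage markers tested were higher, with a median of 2.47, and their sum ran from 1662 to 3495 in the NDMA livers and from 222 to 946 in the saline livers, without overlap. Spp1, osteopontin, which cholangiocytes also make, took 33.5% of that sum. Mmp12, the macrophage elastase, rose by 4.35 ± 0.44, Cd14, the lipopolysaccharide co-receptor, by 3.78 ± 0.38, and Ms4a7 by 3.15 ± 0.37, and the groups did not overlap for these 3. With a mean of at least 20 required, which leaves fewer members tested, 7 of the list were higher.

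Of the resident Kupffer cell markers, 5 of 12 were higher, 1 was lower and the median was 0.61. The complement genes C1qb and C1qc were higher by 1.06 and 1.26 without overlap, whereas Cd163, the haemoglobin scavenger receptor, was at 1.46 to 7.94 (median 3.31) against 2.83 to 19.6 (median 13.4). Scaled to equal totals, 8 of the 12 were higher. No T cell marker of the 3 tested was called (16 of the list were in the table, with a sum of 30.7 to 60.7 against 7.31 to 46.8, led by Ms4a4b). Of 5 NK and cytotoxic markers, 3 were higher (Nkg7, Ccl5 and Xcl1), their list summing to 66.8 to 166 against 13.6 to 70.0. Of 3 B and plasma cell markers, Jchain was higher, at a median of 20.6 against 3.50, while 91.4% of that list's sum was Xbp1, which hepatocytes express. Of 6 neutrophil markers 2 were higher, Ngp and Camp (4 with equal totals), and the call for Camp was lost without D209001 (adjusted p = 0.088). The part of these cell types in the immune genes above was not tested.

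Stellate cell and fibroblast markers were higher at 16 of 23 members, lower at 1, and had a median of 1.31. With a mean of at least 20 required, which leaves fewer members tested, 10 were higher. Their sum was 1183 to 1882 in the NDMA livers and 679 to 1164 in the saline livers, without overlap, and 34.1% of it was Dcn, decorin. Timp1, an inhibitor of matrix metalloproteinases, was at 13.9 to 30.6 (median 18.8) with 1 read in all saline libraries together. Its pooled ratio was 122, with an exact interval from 21.8 to 4849. The collagen gene Col1a1 was at 10.9 to 43.3 (median 14.8) against 0 to 7.31 (median 4.07), and Lum, lumican, rose by 2.89 ± 0.51. The lower member was Ecm1, a secreted matrix protein that hepatocytes also make, at 35.5 to 58.4 against 50.9 to 216.

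Of 10 cholangiocyte markers 7 were higher, with a median of 2.34, which was also 2.34 with Sprr1a set to its bound. Their sum overlapped between the groups, from 583 to 1996 against 93.3 to 668, and 80.3% of it was Spp1. The highest saline sum was that of D209003, and the other 7 were at 93.3 to 206. With a mean of at least 20 required, which leaves fewer members tested, 2 were higher. Of 14 endothelial markers 1 was higher (Lyve1), beside 7.27% of all genes tested. Their list had a sum of 513 to 579 against 424 to 569. Of 6 erythroid markers 1 was higher (Car2), and of 2 pancreas acinar markers none was called. The 2 adipose markers tested split, with Fabp4 higher by 1.19 and Car3, which hepatocytes also make, lower by 1.32.

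**Figure D3:**
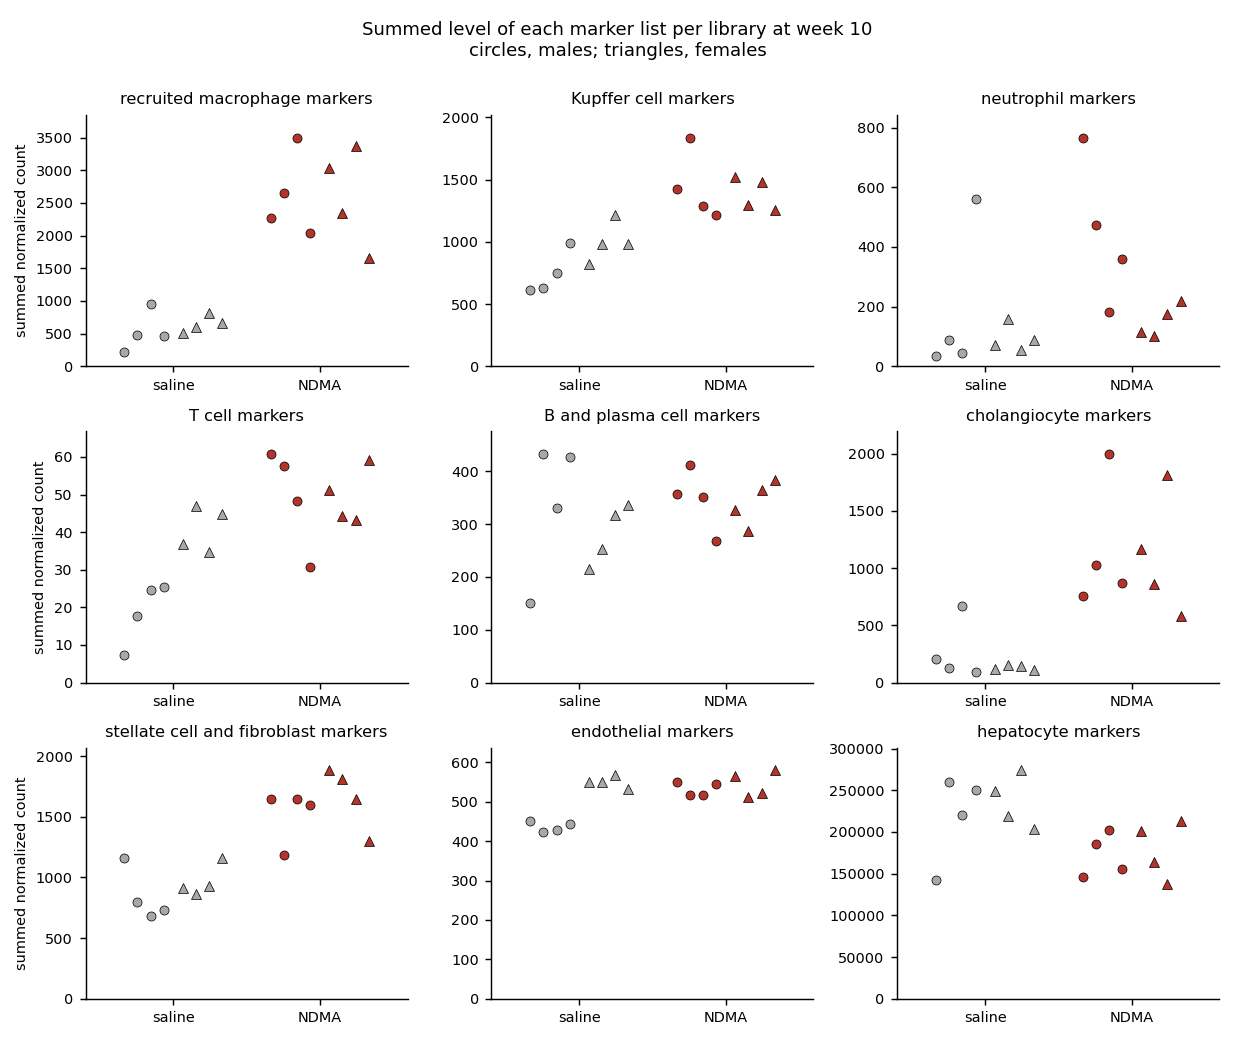
Summed normalized count of 9 marker lists in each of the 16 libraries, with saline in grey, NDMA in red, males as circles and females as triangles. The recruited macrophage sums (1662 to 3495 against 222 to 946) and the stellate cell and fibroblast sums (1183 to 1882 against 679 to 1164) did not overlap between the groups, while the other 7 did.

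Many genes of hepatocyte metabolism were lower, among them genes of the pericentral zone and of lipid synthesis. Beside them, 1 of the 10 general hepatocyte markers was lower (Serpina1c, an alpha-1-antitrypsin gene) and none was higher, and 3 were lower without D209001. Their median log2 fold change was -0.22, or -0.01 with equal totals, beside 0.04 and 0.24 over all genes tested. The summed level of these markers had a median of 174183 in the NDMA livers and 234517 in the saline livers, and the groups overlapped. Ttr made up 30.0% of the sum, and the part of the marker sum in the lower metabolic genes was not tested. Of 26 pericentral genes 12 were lower and 4 higher, with a median log2 fold change of -0.44 (-0.28 with equal totals). Of 28 periportal genes none was lower and 3 were higher, with a median of -0.14 (0.07 with equal totals, beside 0.24 over all genes). Without D209001, 1 periportal gene was lower and 5 were higher. Besides Cyp2e1 and Cyp2c37, Cyp2c54 fell by 1.86 on the log2 scale. Higher pericentral members included Gstm3, Gstm2 and Rhbg, an ammonium transporter whose call was lost without D209001 (adjusted p = 0.064). The periportal genes that rose were Aldh1b1, Apoa4 and Hsd17b13, a lipid droplet enzyme. The difference between the zones was not tested.

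Of 52 cytochrome P450 genes of families 1 to 4, 11 were lower and 3 higher (median -0.46), and 16 were lower without D209001, while 5 were higher with equal totals. Cyp2d13 was at 5.28 to 39.2 (median 11.8) against 37.4 to 86.1 (median 54.9). The higher ones were Cyp4f16, Cyp4a12b and Cyp2d12, and edgeR did not call the last 2 (adjusted p = 0.054 and 0.063). Bile acid synthesis and transport had 13 lower and no higher members of 31 (median -0.54), with 1 higher without D209001. Slco1a1, a transporter of organic anions on the sinusoidal membrane, was at 1.70 to 81.9 (median 19) in the NDMA livers and at 53 to 754 (median 416) in the saline livers, a log2 fold change of -4.15 ± 0.40 (adjusted p = 4.3e-07). Cyp7b1 and Cyp8b1, enzymes of the alternative route and of cholic acid formation, fell by 2.17 and 1.73.

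Of 18 genes of fatty acid synthesis, 9 were lower and 1 was higher (Scd2), with a median of -0.90, and with equal totals 6 were lower. Thrsp, a lipogenic regulator responsive to thyroid hormone, was at 277 to 747 (median 580) against 473 to 8012 (median 3944), and Mlxipl, the carbohydrate-responsive factor ChREBP, was at 10.4 to 51.5 (median 23.3) against 43.1 to 109 (median 77.0). Of 24 genes of cholesterol synthesis, 7 were lower and 1 was higher, with a median of -0.56. There were 4 lower with equal totals and 12 without the saline library D209028. Insig1, which retains the SREBP complex in the endoplasmic reticulum, was at 19.3 to 54.5 (median 33.6) against 77.5 to 242 (median 95.2), while its paralog Insig2 was the higher one, by 1.08 ± 0.20.

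Of 36 genes of fatty acid oxidation and ketogenesis, 11 were lower and 2 higher (median -0.53), and with equal totals 3 were lower. Fabp1, the fatty acid binding protein of the hepatocyte, was at 15895 to 38006 (median 32569) against 29439 to 106662 (median 78011), and Ppara, the nuclear receptor of this pathway, fell by 0.96. The higher ones were Pdk4, an inhibitor of pyruvate oxidation, and Fgf21, a hormone of fasting and stress, at 9.46 to 52.5 (median 26.1) against 0 to 19.6 (median 3.19). Of 16 lipid droplet genes 6 were higher, 1 was lower and 9 were not called (median 0.56). With a mean of at least 20 required, which leaves fewer members tested, 3 were higher. The difference between these lists was not tested. Cidec and Mogat1, which enlarge droplets and make diacylglycerol, rose by 2.19 and 2.51, whereas Dgat2, which makes triglyceride, was at 145 to 209 against 311 to 626, lower by 1.16 without overlap.

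Of 27 acute phase genes 10 were higher and none lower, or 1 lower without D209001 (median 0.29), with Orm2, orosomucoid, at 59.9 to 253 (median 187) against 3.13 to 51.1 (median 28.3). Saa2, serum amyloid A, overlapped between the groups, at 699 to 3258 against 104 to 5741, and edgeR did not call it (adjusted p = 0.33). The overlap came from D209003 alone, and the other 7 saline livers were at 104 to 201. Without D209003 the log2 fold change was 2.90 (adjusted p = 3.2e-08 in limma). Of 30 constitutive plasma proteins 3 were lower and none higher, namely Serpina1c, F7 and Plg, 27 were not called, and 7 were lower without D209001. The lists were not compared by a test. Ttr, transthyretin, the most abundant hepatocyte marker, was at 36533 to 70980 against 12837 to 100450 and was not called (adjusted p = 0.63). Without D209001 it was called lower, with a log2 fold change of -0.62 (adjusted p = 0.0037).

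Of 15 clock genes 6 were lower and none higher (median -0.84). Tef and Dbp, output factors of the clock, were at medians of 25.5 and 54.0 against 62.6 and 95. With equal totals 2 were lower, and the hour of collection is not given in the sources used here. Among 26 liver transcription factors 5 were lower and 2 higher, beside 3.88% and 7.27% of all genes tested. Nr1i3, the receptor CAR, fell by 1.2 ± 0.18 and Thrb, a thyroid hormone receptor, by 0.92. The lower count was 2 with equal totals and 3 without the NDMA library D209006, D209029 or D209030 or the saline library D209025. In the growth hormone axis, 3 of 15 were lower and 1 was higher (median -0.10). With equal totals 1 was lower (median 0.10, beside 0.24 over all genes). Without D209001, 2 were higher. The lower genes included the receptor Ghr, at 256 to 494 (median 386) against 392 to 778 (median 614) and Igfals, a carrier of IGF1, at a median of 68.7 against 143. Igfbp1, a stress-responsive IGF-binding protein, was higher by 1.6. Of 21 genes of branched-chain amino acid catabolism 3 were lower (Acat1, Pccb and Mccc2) and none was with equal totals. Of 16 in the route from tryptophan to NAD 3 were lower and 1 was higher, Acmsd, at a median of 80.3 against 21.7.

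Male and female livers were then compared in their response. Tested within each sex, 503 genes were called in males (5.2%) and 552 in females (5.7%), and the term for a sex difference in the response passed an adjusted p of 0.05 at 11 genes (0.114%), with 408 at an unadjusted p under 0.05. Of these 11 genes 8 were on the list of female-biased liver genes and 2 on the male-biased list. Sult3a1, a sulfotransferase of the female liver, was at 455 to 1661 (median 921) in saline females and at 1.45 to 9.46 (median 4.29) in NDMA females, while the males of both groups stayed at or below 8.61. The log2 response was -7.43 in females and 0.01 in males, a difference of 7.44 ± 0.97 (adjusted p = 0.0011). Sult3a2, which is nearly identical in sequence so that 3′ reads can be shared, followed it at 15.1 to 100 in saline females and at most 0.882 in NDMA females.

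Several P450 genes of the female liver showed the same order. Cyp2c69 was at 1306 to 3800 (median 1433) in saline females and at 37.0 to 267 (median 103) in NDMA females, with 7.68 to 17.2 over all males. Cyp3a44 fell in females from a median of 143 to 10.6, and Cyp2b9 from 844 to 111. Slc22a26, an organic anion transporter, fell in females from a median of 144 to 22.3. In Cyp2a4 it was the male livers that moved: males rose from 5.66 to 18.8 (median 15.4) to 74.5 to 159 (median 103), by 2.95 on the log2 scale, and females were at medians of 709 and 684.

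The male-biased genes of this set came closer between the sexes. Cyp2d9, a P450 of the male liver, was at 3750 to 4636 (median 3964) in saline males and 819 to 2637 (median 2102) in NDMA males, but at 132 to 262 (median 155) in saline females and 332 to 675 (median 569) in NDMA females. The response was -1.21 in males and 1.61 in females. Nat8, an acetyltransferase, had medians of 55.3 and 23.8 in males and 4.42 and 16.4 in females, of which the female change passed the test (adjusted p = 0.0050) and the male change did not (adjusted p = 0.14). Cib3, the second of the leading higher genes, rose in both sexes to like levels, by 4.65 from a saline male median of 32.4 and by 7.43 from a saline female median of 3.44.

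Male and female livers differed from each other at 110 genes after saline (1.14%) and at 37 genes after NDMA (0.382%), or at 141 and 64 without D209001. Over the male-biased list of 47 genes the median difference between males and females was 2.04 (log2) after saline and 1.51 after NDMA, with 20 and 10 genes called. Over the female-biased list of 47 it was -1.68 and -1.55, with 23 and 12 called. Tested within a sex, the male-biased list had 2 higher and 13 lower genes in males and 9 and 10 in females, and the female-biased list had 10 higher and none lower in males and 8 and 14 in females. Without D209001 the saline medians were 1.88 and -2.17. In the comparison of treatments with both sexes together, 15 male-biased genes were lower and 6 higher, and 7 female-biased genes were lower and 8 higher. Without the sex term in the model 8 male-biased genes were lower and 2 higher, and 1 female-biased gene was lower, and the female-biased lower count was 2, 3 and 3 without the NDMA female D209029, D209030 or D209031, and 4 without the saline female D209027.

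**Figure D4:**
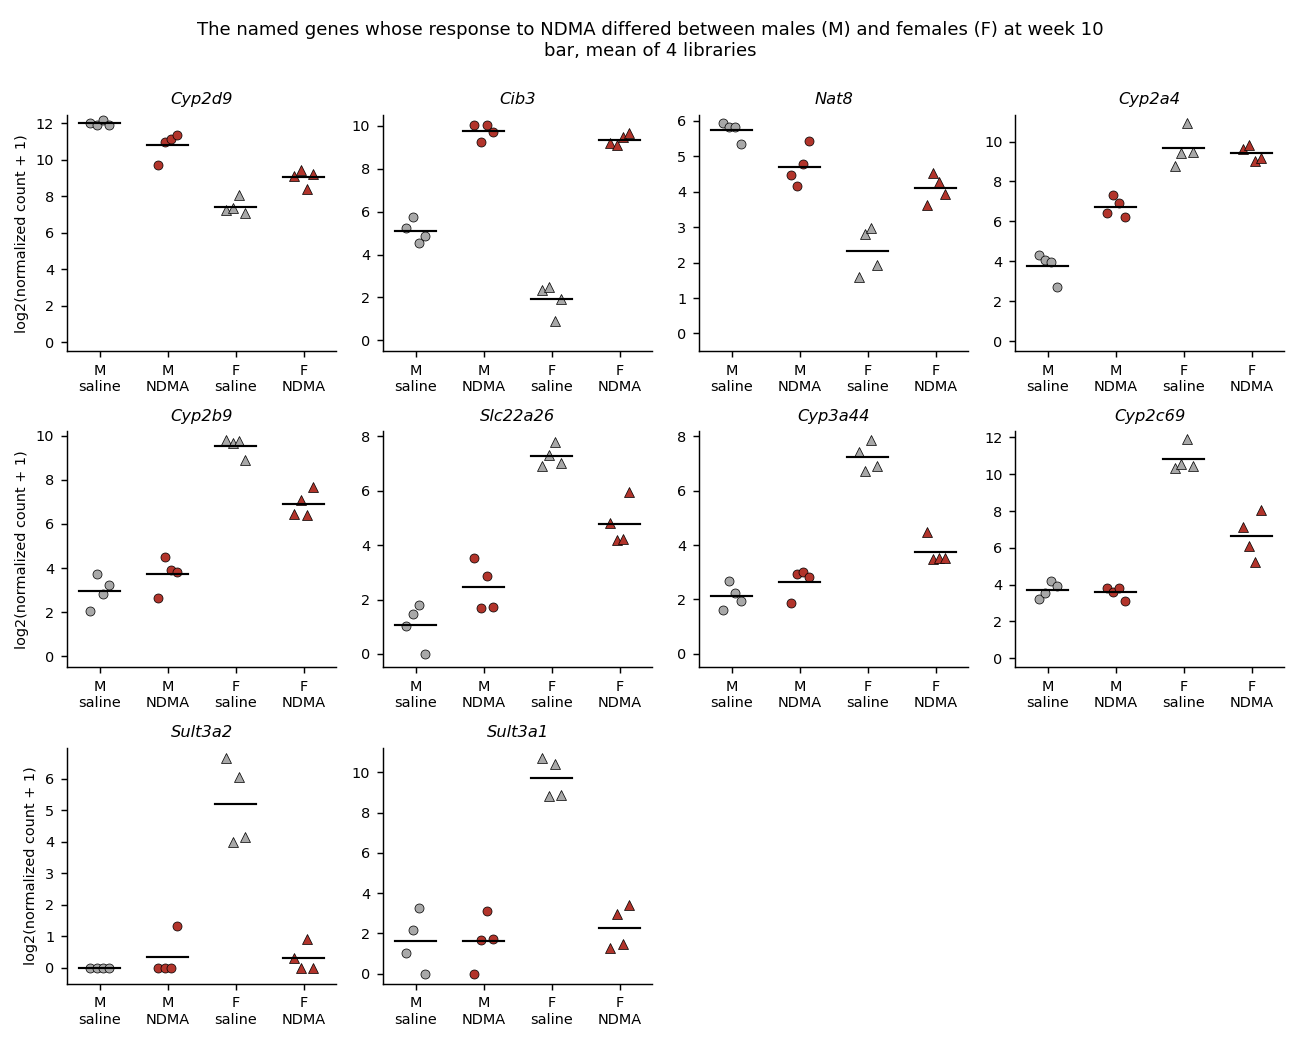
Log2(normalized count + 1) of 10 of the 11 genes whose response differed between the sexes, for saline (grey) and NDMA (red) males (circles) and females (triangles), with a bar at the mean of 4 livers. Sult3a1 and Sult3a2 in NDMA females lay at the level of the males, Cyp2d9 and Nat8 came closer together between the sexes, and Cib3 reached a like level in both.

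The week 10 response was set beside that at the other collections of Mgmt-/- livers, which used other mice. Livers of days 1, 2 and 5 were those of pups. Days 2 and 5 came from another library batch, and day 1 from that batch and the week 10 batch, with batch as a term. Group sizes also differed, so that differences between collections cannot be told apart from batch and group size there. On day 1 NDMA livers had 911 higher (9.06%) and 869 lower genes (8.64%), and on day 2 they had 1170 (12.4%) and 710 (7.5%). On day 5 there were 699 (7.17%) and 306 (3.14%), and month 10 gave 478 (4.75%) and 301 (2.99%). Of the 704 genes higher at week 10, day 1 shared 319 (45.3% of the week 10 list and 35.0% of the day 1 list), day 2 shared 374 (53.1% and 32.0%), day 5 shared 251 (35.7% and 35.9%) and month 10 shared 298 (42.3% and 62.3%). Of the 376 lower genes, day 1 shared 184 (48.9% and 21.2%), day 2 shared 179 (47.6% and 25.2%), day 5 shared 43 (11.4% and 14.1%) and month 10 shared 107 (28.5% and 35.5%). Week 10 calls that were not tested at another collection count here as not shared. Of the 704, 661 were tested on day 1, 637 on day 2, 651 on day 5 and 602 at month 10. Of the 376, these numbers were 338, 338, 341 and 370. Among genes higher at these collections, in order, 5, 3, 3 and 0 were lower at week 10. Among those lower, 22, 15, 8 and 1 were higher at week 10. At day 5, 2 libraries held kidney transcripts, and without them 1037 genes were higher and 624 lower, of which week 10 shared 365 (51.8% of the week 10 list and 35.2% of the day 5 list) and 157 (41.8% and 25.2%).

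Month 10, with 13 NDMA livers (6 males and 7 females) and 12 saline livers (5 males and 7 females) of the same library batch, allowed a test of the difference. The response differed between week 10 and month 10 at 47 of 10020 genes (0.469%), 27 with a more positive and 20 with a more negative response at week 10, and 809 at an unadjusted p under 0.05. Without D209001 there were 95. Of the 47, 44 were called at week 10 and 13 at month 10. Cdkn1a was at 97.7 to 349 after NDMA at week 10 and at 19.5 to 105 (median 35.5) at month 10, where saline livers held 1.48 to 23.5. Its response was 4.95 and 2.13, a difference of 2.82 ± 0.49 (adjusted p = 0.0025), so that it was called at both times. Ly6d went from a response of 6.94 to 3.97, with NDMA medians of 1317 and 206. Sprr1a was at 0 to 25.8 (median 5.80) in the NDMA livers of month 10. Other genes with a larger rise at week 10 were Spink1, Cbr3, Timp1 and Anxa2, with differences from 1.71 to 2.79.

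Among the genes lower at week 10 and not at month 10, several are male-biased, so their levels are given by sex. Mup11, a major urinary protein whose relatives share its 3′ reads, was at 9.70 to 2123 against 581 to 55419 at week 10 over both sexes. Its medians were 635 after NDMA and 13579 after saline in males of week 10 and 2481 and 3044 in males of month 10, and in females they were 42.7 and 1197 at week 10 and 145 and 60.6 at month 10. In both sexes the saline median was lower at month 10. Hsd3b5, a steroid-metabolizing enzyme of the male liver, had male medians of 13.9 and 560 at week 10 and of 57.0 and 62.2 at month 10. Its female medians were 0.591 and 31.9 at week 10 and 1.33 and 0 at month 10. Slco1a1 had male medians of 50.1 and 545 at week 10 and of 105 and 237 at month 10, and female medians of 4.25 and 165 at week 10 and of 6.45 and 1.87 at month 10. Neither the change in saline levels between the times nor the sexes apart was tested. Rgs16 was at 3.65 to 13.7 in the NDMA livers of week 10 and at 14.1 to 182 in those of month 10, where the saline livers were at 6.68 to 160. Nxpe2 was lower at both times, with log2 fold changes of -2.59 and -2.60.

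**Figure D5:**
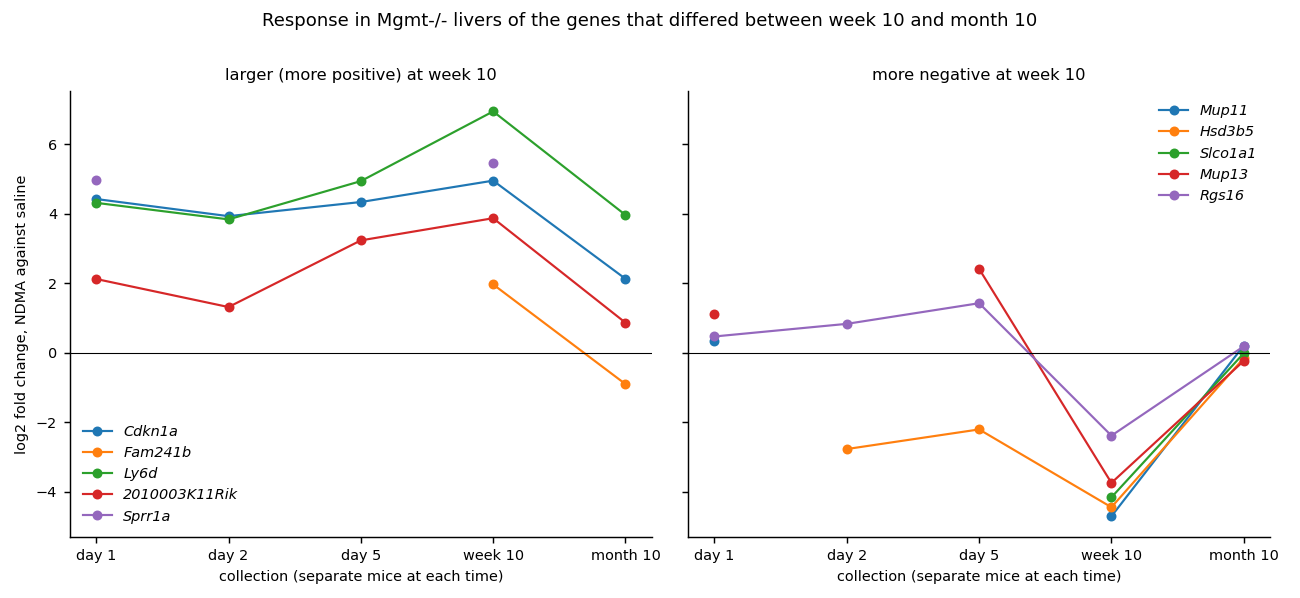
Log2 fold change (NDMA against saline) in Mgmt-/- livers at 5 collections for the 5 genes with the most positive (left) and the 5 with the most negative (right) difference between week 10 and month 10, with a point missing where the gene did not reach the mean of 5. Ly6d peaked at week 10 (6.94 against 3.97 at month 10), and the 5 genes on the right lay between -4.70 and -2.38 at week 10 and between -0.23 and 0.21 at month 10.

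The same doses and time in wild type (WT) mice, which carry the reporters but an intact Mgmt, gave few changes. Of 8048 genes tested in the 8 NDMA and 8 saline WT livers, 2 were higher (0.0249%), 1810053B23Rik and Sult2a7, and none was lower (0%), with 350 at an unadjusted p under 0.05 in limma. The 2 genotypes were normalized separately and no library batch held both at week 10, so that genotype and batch cannot be told apart. Each WT batch also held a single sex, and the WT NDMA female D215022 had 270673 reads, the fewest. Without it the same number of genes, 2, were called. Fitted together on reads recovered from the normalized counts, with edgeR, the response differed between the genotypes at 449 of 9681 genes (4.64%), 268 more positive and 181 more negative in Mgmt-/- livers, with 1653 at an unadjusted p under 0.05. Without D209001 there were 553, and 489 without D215022. Of the 449, 414 were among the week 10 calls.

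The named genes with the most positive difference were at or near 0 in WT livers. Cxcl14 was at 0 to 2.03 in NDMA and 0 to 9.94 in saline WT livers, against 61.5 to 148 in NDMA Mgmt-/- livers, and Timp1 was at most 3.31 in any WT liver. Gpx2 was at most 1.91 there. AI314278 had no read in the saline Mgmt-/- livers and lay at 6.15 to 25.8 after NDMA, a median at least 24.7-fold above the floor of 3 reads over the saline group. In WT livers it was at 0 after NDMA and at most 3.64 after saline. Among the genes more negative in Mgmt-/- livers, Hsd3b5 was at medians of 244 after NDMA and 257 after saline in WT livers, and Sult3a1 ranged from 0 to 1451 and from 0 to 1116. Cyp2e1 was at 3532 to 9472 in NDMA WT livers and 2314 to 8229 in saline WT livers, with a difference in response of -1.96 (adjusted p = 4.8e-05). Cdkn1a was at 3.49 to 103 (median 16.9) against 1.52 to 62.9 (median 5.77) in WT livers, with a highest NDMA value of 85.1 without D215022, and its response was larger in Mgmt-/- livers by 4.30 (adjusted p = 0.0053).

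By list, the genotype term was positive at all 7 MHC class II genes tested, 9 of 11 recruited macrophage markers, 12 of 23 stellate cell and fibroblast markers, 15 of 30 oncofetal markers and 12 of 25 tubulins, annexins and S100 proteins. It was positive at 6 of 28 type I interferon effectors, 3 of 13 interferon-induced GTPases, 5 of 28 p53 targets and 6 of 25 genes of cell division. It was negative at 11 of 26 pericentral genes, 12 of 47 male-biased genes, 6 of 18 genes of fatty acid synthesis and 6 of 15 clock genes, and no T cell, NK or endothelial marker passed. In the other direction it was positive at 2 pericentral, 2 male-biased and 1 fatty acid synthesis gene. It was negative at 1 stellate cell and fibroblast marker. Of the 47 female-biased genes, 4 were positive and 5 negative.

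The spread among livers was larger in the saline group when D209001 was included. After removal of the sex means, the median SD of a gene's log2 values was 0.40 in the NDMA livers and 0.63 in the saline livers, and 22% of genes had the larger SD in the NDMA livers. Most of that gap came with D209001: without it the saline median was 0.46, and 40.7% of genes had the larger SD in the NDMA livers. For the 2019 genes whose mean reached 100 the medians were 0.28 and 0.48, and 0.26 for saline without D209001. Of these genes 19.3% had the larger SD in the NDMA livers, and 55.2% without D209001.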

How the data were processed

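Liver RNA was profiled by 3′ digital gene expression with barcoded primers that carry molecular identifiers. According to the methods, the authors aligned reads with STAR to GRCm38/mm10, used ESAT for the counts of each gene and scaled these by the median-of-ratios size factors of DESeq2, and the resulting normalized counts (a signal, not raw counts) were deposited. Tool versions and the collapsing of identifiers are not given in the sources used here. Dividing by the step of each library gave whole reads for 100% of values within 0.01. Log2(value + 1), so that changes of low genes are understated, was fitted in limma 3.58.1 (R 4.3.3) with treatment and sex, for genes with a mean of 5 or more. Sex and time terms were fitted likewise, and the genotype term with edgeR 4.0.16 on the reads. DESeq2 1.42.0, other scalings, filters and pseudocounts, thinning to 727117 reads and leaving out each library were alternatives. Intervals cover counting error only. The p-values rest on the spread between mice, with no term for litter, which is not given.

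Named genes were the 12 leading higher and 12 leading lower calls without overlap, up to 3 higher and 3 lower leading members of each list and the most abundant marker of each marker list, up to 6 (sex) or 5 (time, genotype) leading genes of each term in each direction, and Mgmt, Cdkn1a, Cyp2e1, Xist and 4 Y-linked genes. Vim, Sult2a7, 1810053B23Rik and Cyp2c40 were named after their values were seen. The lists and comparisons were chosen with earlier results of these data known. Positions are from GENCODE on GRCm38 and promoters from RefSeq on GRCm38.p6. Of 214 labelled samples, 213 had values.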

Additional observations from a re-analysis of the deposited data

Results flagged for a closer look

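Of 56 pairs of a measure and a treatment group examined, 12 had 1 library far from the others, by the gap to its nearest neighbour as a share of the group's range. All 12 lay at the high end of their group. A rate of about 1 in 20 is a general guide that was not derived for these values, which are not on a log scale. Whether 12 is more than chance gives was therefore not tested, and the Mgmt levels rest on few reads. In the NDMA group these were total reads (0.713, D209029 with 7740710), ribosomal protein share (0.731, D209005 at 3.39% with the next at 2.16%), Tff3 (0.771, D209005 at 1587 with the next at 443), Srebf1 (0.566, D209008 at 78.4), Mir22hg (0.566, also D209008, at 63.0) and Mgmt (0.576, D209030 at 3.41). In the saline group they were ribosomal protein share (0.528, D209028 at 2.81%), Tff3 (0.643, D209003 at 46.8), Arhgap26 (0.592, D209001 at 76.2), Srebf1 (0.794, D209001 at 261), Lifr (0.595, D209027 at 989) and Mgmt (0.529, D209026 at 7.55).

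The response differed between the sexes at 11 genes, given as male minus female response on the log2 scale. It was -2.82 for Cyp2d9, -2.78 for Cib3 and -2.78 for Nat8. It was 3.17 for Cyp2c40, 3.19 for Cyp2a4, 3.39 for Cyp2b9, 3.85 for Slc22a26, 4.0 for Cyp3a44, 4.04 for Cyp2c69, 5.25 for Sult3a2 and 7.44 for Sult3a1.

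Between week 10 and month 10 the response differed, as week 10 minus month 10, by 3.33 for Sprr1a, 3.01 for 2010003K11Rik, 2.95 for Ly6d, 2.84 for Fam241b and 2.82 for Cdkn1a. The difference was -4.92 for Mup11, -4.30 for Hsd3b5, -4.19 for Slco1a1, -3.51 for Mup13 and -2.60 for Rgs16.

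Between genotypes, as Mgmt-/- minus WT, the difference was 9.45 for AI314278, 7.55 for Gpx2, 7.03 for Cxcl14, 6.67 for Timp1 and 6.24 for Phlda2, values that depend on the prior count since these genes are at or near 0 in some groups. It was -6.51 for Sult3a2, -6.47 for Sult3a1, -5.32 for Hsd3b5, -4.75 for Mup1 and -4.69 for Mup11. Genotype and library batch cannot be told apart there.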

How the results depend on the processing

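Of the 141 named genes called at week 10, 103 were called under all 27 settings that gave a value and none reversed. Scaling to equal totals gave 1147 higher and 177 lower genes, and 414 genes were higher with a mean of at least 20 required, which tests fewer genes. edgeR called 696 and 556 and DESeq2 781 and 543. On leaving out 1 library at a time the counts ran from 561 to 858 higher and from 303 to 470 lower, the largest both without D209001. Chosen after seeing the data, thinning to equal reads gave 560 and 301 and a term for log2 reads 576 and 357. Also chosen then, leaving out the WT library with 270673 reads gave 2 WT calls, as with it. The sex term had 7 genes with edgeR, 7 with thinned reads and 7 to 13 on leaving out a library, with the fewest without the NDMA library D209007 or D209030. The time term had 74 with a pseudocount of 5 and 95 without D209001. The genotype term had 287 with a mean of at least 20 reads in each genotype. The cause of these changes was not tested. No paired analysis was possible because each library carries its own label and the groups share no replicate numbers. Low counts limit the lists of cell division, p53 targets, cholangiocyte, recruited macrophage and stellate cell markers, interferon-induced GTPases and lipid droplet genes. In these, fewer members were higher with a mean of at least 20 required, a filter under which fewer were also tested.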
